A study of Mus musculus with 7 samples.

Results

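The genes described here are 47 genes that cells use in G2 phase and mitosis, from the kinase that starts mitosis to the proteins that divide the cell. They were taken by name from a list of G2 and M phase genes, and all 47 had a row in the deposited table of 16760 genes. The table holds RNA sequencing of mouse cells that the labels call HSC (haematopoietic stem cell) and CD150 negative, all of strain C57/B6. There were 4 libraries of genotype WT and 3 of genotype 5G2del, which carry a deletion in chromosome band 5G2, the counterpart of human 7q22. Slamf1 encodes CD150. The sources used here do not give the deletion's length, ends or zygosity, the age of the mice, or whether each library is a separate animal. The p-values therefore measure how these libraries spread, which may be technical in part. The table's columns name the group of a library and not its sample, so the libraries are lettered here, WT-A to WT-D, and 5G2del with A, B or C. Values of a gene are given in that order of letters, 5G2del first.

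Mitosis begins when cyclin-dependent kinase 1, bound to cyclin A or cyclin B, becomes active, and it ends when the anaphase-promoting complex with its activator CDC20 marks cyclin B for destruction. In between, kinetochores tie chromosomes to the spindle, checkpoint kinases hold anaphase back until every chromosome is attached, and a contractile ring then splits the cell. The mRNAs of these proteins are low in resting cells and accumulate from S phase to mitosis. In resting cells the DREAM complex keeps many of their promoters silent, and in G2 the MuvB core with B-MYB and FOXM1 activates them, largely through a promoter element called the CHR (cell cycle genes homology region), often beside CCAAT boxes bound by NF-Y. In bone marrow most long-term stem cells are resting and the progenitors below them divide, so the level of these mRNAs in a bulk sample rises with the share of dividing cells. In bulk RNA fewer dividing cells and less of such RNA per cell cannot be told apart.

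Most promoters of these genes carry the letters of that element, which the choice of genes did not use. Of the 47 genes, 40 had an entry among RefSeq promoters of build GRCm38.p6, each a window of 250 bases before to 50 bases after an annotated start. The genes without an entry were Aurkb, Ccna2, Cdc25c, Cdca2, Dlgap5, Smc4 and Tpx2. The CHR was searched as TTTGAA or TTTAAA and the CCAAT box as CCAAT, both on either strand; the 2 motifs were counted separately and may share a base. A CHR match was found for 34 of the 40 genes, or 85.0%, against 30.6% of the 27025 genes with a promoter entry and 22.8% of the 10793 that were also in the expression table. CCAAT was found for 32 of 40 (80.0%), against 41.1% of all genes with an entry, and both motifs for 29 of 40 (72.5%), against 12.2%. A match within 50 bases of the start occurred for 28 of the 40 genes (70.0%) and for 9.83% of all genes. Over all windows the nearest match lay at a median of 108 bases before the start, and over the windows of these genes at 14 bases before it. Related lists shared part of this. CCAAT was found for 71.9% of 32 S phase genes and 62.0% of 100 other G2 and M phase genes with an entry. The CHR was found for 51 of those 100 genes. Among the S phase genes it was found for 9 of 32 (28.1%), near the shares of 30.6% and 22.8% given above. The S phase genes thus shared the high share of CCAAT but not that of the CHR. A match is a run of letters and not a shown binding site.

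**Figure D1:**
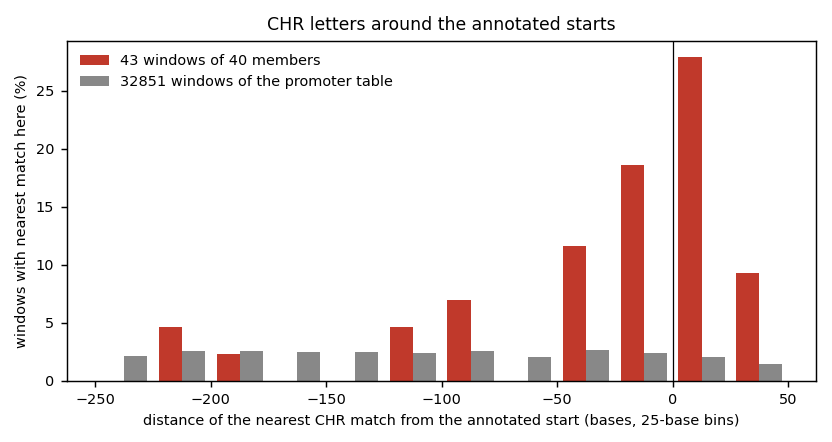
Distance in bases (x axis, 25-base bins, 0 at the annotated start) of the CHR match nearest the start, as the percent of windows whose nearest match falls in the bin (y axis), for the 43 windows of 40 G2 and M phase genes (red) and all 32851 windows (grey). The red bars are highest in the bins next to the start, with 27.9% of windows just after it, while the grey bars lie between 1.44% and 2.68%.

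Windows from 110 bases before the start to 40 bases from it are shown for the genes that the values below turn on, with CHR and CCAAT matches in capitals (5′ to 3′ in the gene's direction, RefSeq, GRCm38.p6). Cks1b and Cks2 are the pair of CDK subunit genes, of which the first has matches to both motifs and the second to CCAAT alone. Cdk1, Ccnb1, Ccnb2 and Plk1 are core mitotic genes, and Anp32e is a gene whose RNA hardly varied.
Cks1b, chr3:89418252-89418401, minus strand: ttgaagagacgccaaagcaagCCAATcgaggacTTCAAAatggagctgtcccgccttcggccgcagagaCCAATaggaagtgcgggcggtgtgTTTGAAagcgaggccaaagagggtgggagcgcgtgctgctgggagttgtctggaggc
Cks2, chr13:51645122-51645271, plus strand: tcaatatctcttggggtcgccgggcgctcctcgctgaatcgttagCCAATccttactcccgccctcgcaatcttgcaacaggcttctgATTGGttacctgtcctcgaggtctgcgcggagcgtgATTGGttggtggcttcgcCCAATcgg
Cdk1, chr10:69352873-69353022, minus strand: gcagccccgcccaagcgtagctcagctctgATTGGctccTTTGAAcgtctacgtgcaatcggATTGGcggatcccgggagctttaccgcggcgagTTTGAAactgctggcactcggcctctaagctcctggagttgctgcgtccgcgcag
Ccnb1, chr13:100786447-100786596, minus strand: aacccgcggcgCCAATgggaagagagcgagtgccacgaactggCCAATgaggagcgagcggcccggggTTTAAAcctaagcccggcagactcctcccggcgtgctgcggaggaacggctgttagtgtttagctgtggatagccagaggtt
Ccnb2, chr9:70421515-70421664, minus strand: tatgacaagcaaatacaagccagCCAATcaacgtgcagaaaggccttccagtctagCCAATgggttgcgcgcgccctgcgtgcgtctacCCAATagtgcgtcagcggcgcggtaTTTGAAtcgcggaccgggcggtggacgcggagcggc
Plk1, chr7:122159325-122159474, plus strand: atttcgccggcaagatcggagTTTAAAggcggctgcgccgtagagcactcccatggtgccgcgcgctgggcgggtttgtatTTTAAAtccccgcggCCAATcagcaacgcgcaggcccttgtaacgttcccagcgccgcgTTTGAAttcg
Anp32e, chr3:95929147-95929296, plus strand: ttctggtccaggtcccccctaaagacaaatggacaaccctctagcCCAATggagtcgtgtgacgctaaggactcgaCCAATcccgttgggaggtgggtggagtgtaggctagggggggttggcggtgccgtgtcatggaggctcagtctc
In Cks1b and Cdk1 the nearest CHR match, TTTGAA, is centred 14 and 12 bases before the start, and in Plk1 and Ccnb1, where it is TTTAAA, 26 and 39 bases before. That of Ccnb2 is centred 7 bases after the start. Anp32e has its match 192 bases before the start, outside the window shown. The genes with no CHR match in their window were Bub1, Cks2, Nek2, Nuf2, Nusap1 and Tacc3, of which Nuf2, Nusap1 and Tacc3 had no CCAAT match either.

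The values are log2 CPM as the authors deposited them. Read counts were scaled to effective library sizes, those implied by the value of a count of 0, between 34865420 and 55716549. In 5G2del-C and WT-C this size was below the summed counts of the listed genes, 41220903 against 47664360 and 34865420 against 42038974. In WT-B 1104 genes had 0 counts, and in each other library 83 to 492 did. Markers of the labelled cells were present throughout, with Kit at 7.98 to 8.23 log2 CPM, Cd34 at 7.88 to 8.48, Flt3 at 7.51 to 8.50, Ly6a at 5.91 to 7.25, Procr at 5.00 to 5.70 and the leukocyte gene Ptprc at 6.87 to 7.83. Of the 8 markers of these cells 5 had higher means in 5G2del and 3 lower, and none passed the adjusted threshold. At an unadjusted p under 0.05 in limma there were 2, against 3.91% of all genes. Groups did not overlap for 1, against 5.7% of all genes. Kit, Cd34, Procr, Flt3 and Ly6a had log2 fold changes of 0.087, 0.13, 0.22, -0.20 and -0.42. Slamf1, the gene of the marker these cells lack, was at 0.40, 0.63 and 0.65 in 5G2del and -0.29, -1.62, -2.22 and -0.26 in WT, with every 5G2del library above every WT library (log2 fold change 1.66 ± 0.75; limma unadjusted p = 0.0504, adjusted p = 0.989). Cd48, a surface marker of progenitors, was at 4.94, 4.01 and 4.79 against 4.58, 2.52, 3.72 and 3.53, with overlap (0.99 ± 0.42; limma unadjusted p = 0.0372, adjusted p = 0.989), and Ptprc had a log2 fold change of -0.41 ± 0.17 (unadjusted p = 0.0385, adjusted p = 0.989). Their part in the values of the G2 and M phase genes was not tested. Band 5G2 lies toward the distal end of chromosome 5, and 2 of the 47 genes are on that chromosome, both proximal: Cenpa from position 30666777 and Tacc3 from 33658128 (mm10, GENCODE M21).

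All 47 genes were measured in the 7 libraries except Cdc25c, which had 0 counts in WT-B. Compared per kilobase of annotated exon, the highest mean level was that of Hmgb2, a chromatin protein that bends DNA, with 47.7 CPM per kilobase. Cks1b followed with 30.5, then Mki67 with 24.4, Anp32e with 23.4, Smc4 with 22.3, Cks2 with 19.4 and Top2a with 18.8. The lowest were Cdc25c with 0.564, Kif2c with 0.916 and Gtse1 with 1.22 CPM per kilobase. The ranges over libraries of neighbours in this order overlapped, with Mki67 from 12.8 to 54.1 and Cks1b from 23.3 to 42.6 CPM per kilobase. RSEM divides reads that fit more than 1 gene, and 16 members had a count that was not whole within 0.01 in at least 1 library, among them Ccna2, Ccnb1, Cks2, Hmgb2, Nusap1 and Tmpo in all 7. The exons of 13 members, such as Nusap1 with Oip5 and Cdc20 with Elovl1, overlap another annotated gene, and strand is not stated, so reads from the pair cannot be separated.

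The first pattern in these genes was a difference between libraries within the groups. Their mean log2 CPM was 5.11 in WT-A, 3.38 in WT-B, 4.00 in WT-C and 4.18 in WT-D, and 4.74, 4.05 and 4.55 in the 5G2del libraries. WT-A was the highest library and WT-B the lowest, so all 3 5G2del libraries lay inside the WT range. Without Cdc25c, Kif2c and Gtse1, whose mean log2 CPM was under 2, WT-A was at 5.27 and WT-B at 3.83, with the order unchanged. WT-A was the highest of all 7 libraries in 38 of the 47 genes, and WT-B the lowest in 28. The span between the highest and lowest WT library had a median of 1.52 on the log2 scale over the genes, that of the 3 5G2del libraries one of 0.86, and the WT span was the wider in 43 of 47 genes. Within 5G2del, 5G2del-B was lowest in 39 of 47 genes and 5G2del-A highest in 30. Summed over the 47 genes, the level was 2845 CPM in WT-A, 1181 in WT-B, 1348 in WT-C and 1538 in WT-D, and 2113, 1391 and 1926 CPM in the 3 5G2del libraries.

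**Figure D2:**
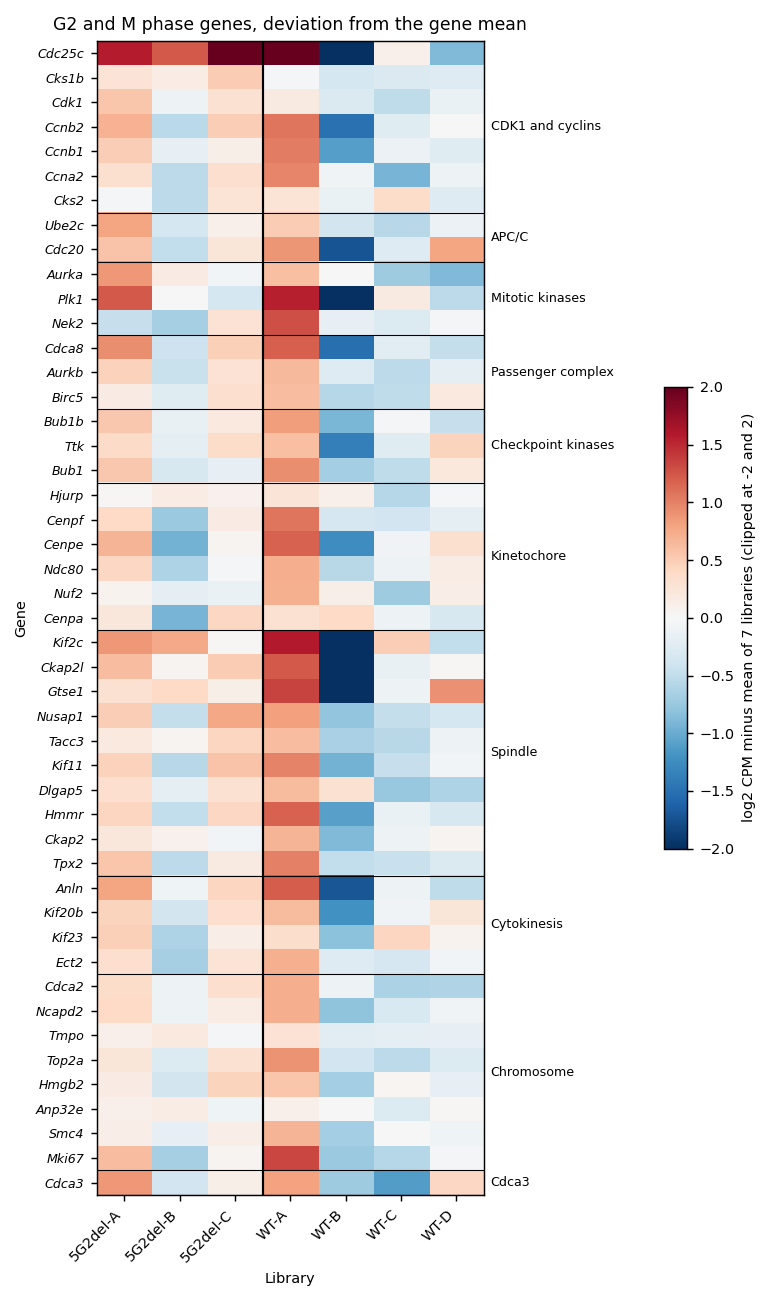
Deviation of each gene's log2 CPM from its mean over the 7 libraries (colour, clipped at -2 and 2), with 47 genes in rows grouped by role and libraries in columns. The WT-A column is mostly red and the WT-B column mostly blue, while 5G2del-A and 5G2del-C are mostly red and 5G2del-B mostly blue.

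The genes moved together across libraries. Each gene was set against the mean of the others over the 7 libraries, as a description, since all points share library and depth and WT-A and WT-B hold the ends. Pearson's r had a median of 0.86 and exceeded 0.8 for 30 of 47 genes, while 3.28% of all genes had an r over 0.8 with the mean of the 47, as did 23.8% of the 122 other G2 and M phase genes described below and 13.6% of 44 S phase genes. The closest were Ncapd2, a condensin subunit (0.99), Ccnb2 and Ccnb1, the B cyclins (0.98 each), Cdca8, the passenger complex subunit Borealin (0.98), and Hmmr and Kif11, which act on spindle poles and spindle bipolarity (0.97 each). The genes under 0.5 were Cenpa (0.21), Hjurp (0.29), Anp32e (0.31), Cks2 (0.41), Dlgap5 (0.44) and Nuf2 (0.48). Cenpa encodes the histone H3 variant of centromeres and Hjurp its chaperone, and Anp32e encodes the chaperone that takes H2A.Z out of chromatin. Of these 6 genes, Cks2 and Nuf2 had no CHR match, Anp32e had 1 far from the start, Cenpa and Hjurp had 1 within 50 bases and Dlgap5 had no promoter entry. The other genes with no CHR match had an r of 0.92 (Nusap1), 0.90 (Tacc3), 0.89 (Bub1) and 0.59 (Nek2).

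With the deletion, no member rose or fell past the threshold. In limma-trend, fitted on all 16760 genes with the 7 libraries and Benjamini-Hochberg adjustment, 0 of the 47 genes had an adjusted p under 0.05 (lowest adjusted p 0.989), as had 0 genes in all (0.0% of those tested). At an unadjusted p under 0.05 there was 1 gene, Cks1b, which was higher in 5G2del, where 1.68% of all genes were higher at that level. The same gene was the only 1 of the 47 whose groups did not overlap, with 5G2del above WT for 2.92% of all genes. No member had all 5G2del libraries below all WT libraries, as 2.78% of all genes had. The mean was higher in 5G2del for 38 of the 47 genes and lower for 9, against 53.3% higher among all genes, and the median log2 fold change, 5G2del over WT, was 0.21, against 0.03 over all genes. For 35 of the 47 the fold change was smaller than its own standard error. The authors' deposited table held 1 of the 47 at a p under 0.05, Cks1b, and 0 at an adjusted p under 0.05, with 37 higher.

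The size of that lean changed with single libraries, and it was absent without WT-B. Without WT-B 23 of the 47 genes were higher, against 50.2% of all genes, the median log2 fold change was -0.016, and 1 gene, Cks1b, had an unadjusted p under 0.05, against 2.54% of all genes higher at that level. Without WT-A 44 were higher, against 52.1% of all genes, the median was 0.50, and 12 genes had an unadjusted p under 0.05, all higher, against 2.35% of all genes higher at that level in the same fit; the lowest adjusted p of the 12 was 0.975. The 12 were Cks1b, Cdk1, Cdc25c, Cdca8, Bub1b, Tacc3, Nusap1, Ckap2l, Anln, Top2a, Ncapd2 and Cdca2. The median was 0.087 without 5G2del-A, 0.43 without 5G2del-B and 0.14 without WT-C. Without 5G2del-C 0 of the 47 genes had an unadjusted p under 0.05 in limma, against 2.77% of all genes, and without 5G2del-B 2 had, Cks1b and Cdk1, a share near the 3.11% of all genes. Of the 29 genes whose values in each library are given below, 14 changed sign with 1 library left out, and the fold change of 28, all but Cks1b, moved by over 1.5 times. On library sizes without the mitochondrially encoded genes, which shift the median of all genes from 0.03 to -0.083, 33 members were higher, against 41.1% of all genes. The mean over the 47 genes was 4.17 ± 0.72 log2 CPM in the WT libraries (SD, n = 4) and 4.45 ± 0.36 in the 5G2del libraries (SD, n = 3), a difference of 0.28, which is smaller than either spread. Over the 44 genes with a mean log2 CPM of at least 2 the group means were 4.42 and 4.62, a difference of 0.20. For the 47 genes the difference was 0.017 without WT-B and 0.59 without WT-A. It was 0.36 without both, a choice made after the data were seen, with 7 genes then at an unadjusted p under 0.05, all higher, against 3.54% of all genes.

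**Figure D3:**
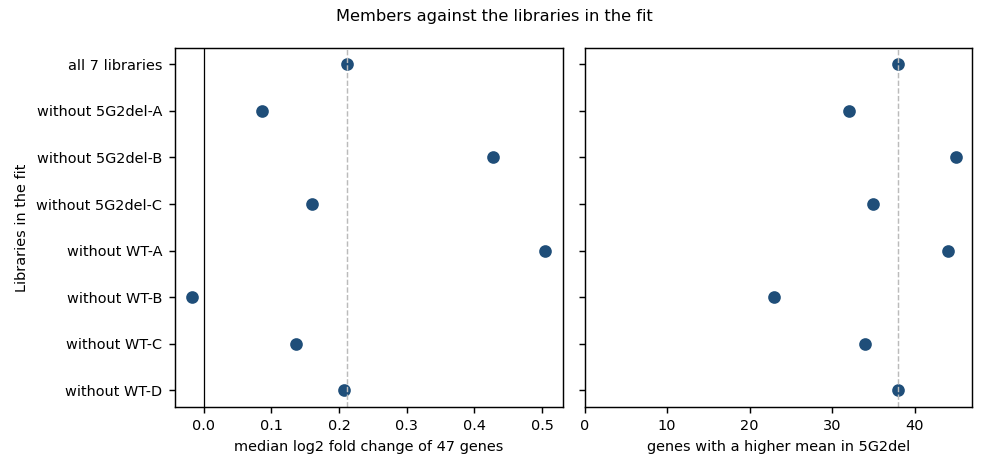
Median log2 fold change of the 47 genes, 5G2del over WT (left), and number of them with a higher mean in 5G2del (right), with all 7 libraries and with each left out (rows). The dashed line marks the value with all libraries, 0.21 and 38, and the points run from -0.016 and 23 without WT-B to 0.50 without WT-A and 45 without 5G2del-B.

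Among the cyclin-dependent kinase 1 genes, Cks1b alone had groups without overlap. That was 1 of the 47 genes (2.13%), below the 5.7% of all genes without overlap in either direction. Cks1b encodes a small subunit that binds CDKs. It is also the cofactor through which the SKP2 ubiquitin ligase degrades the CDK inhibitor p27. Its level was 5.34, 5.22 and 5.58 log2 CPM in 5G2del and 5.04, 4.71, 4.79 and 4.81 in WT. Every 5G2del library was above every WT library. WT-A, the highest of all libraries in most other members, was the highest WT library here too, at 5.04 against 4.71 to 4.81. The log2 fold change was 0.54 ± 0.18 (SE; 95% interval 0.15 to 0.93; limma unadjusted p = 0.0106, adjusted p = 0.989), and it ran from 0.44 to 0.62 with 1 library left out, with the unadjusted p above 0.05 without 5G2del-C. Its counts were whole in all 7 libraries, and its exons, on chromosome 3 between 89415472 and 89418383 (mm10), overlap no other annotated gene. Its paralog Cks2 was at 3.70, 3.20 and 4.00 log2 CPM in 5G2del and 3.99, 3.58, 4.09 and 3.46 in WT, with overlapping groups and a log2 fold change of -0.15 ± 0.27 (95% interval -0.75 to 0.45); whether the pair differ in fold change was not tested.

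Cdk1, the kinase itself, was at 4.60, 3.94 and 4.35 log2 CPM in 5G2del and 4.22, 3.76, 3.53 and 3.90 in WT. Its groups overlapped through 5G2del-B and WT-A, with a log2 fold change of 0.44 ± 0.25. The cyclins followed the library pattern. Ccnb1 was at 4.35, 3.70 and 3.97 in 5G2del and at 4.88, 2.75, 3.74 and 3.61 in WT, and Ccnb2 at 4.78, 3.54 and 4.58 against 5.14, 2.59, 3.84 and 4.07. Ccna2, the cyclin of S phase and early mitosis, was at 5.51, 4.68 and 5.54 in 5G2del and 6.18, 5.12, 4.27 and 5.10 in WT. For all 3 cyclins both the highest and the lowest library were WT, and their log2 fold changes of 0.26 ± 0.42, 0.39 ± 0.51 and 0.07 ± 0.38 changed sign with 1 library left out. Cdc25c, a phosphatase that switches CDK1 on, had the largest fold change of the 47 and the lowest level per kilobase. It was at 1.78, 1.44 and 2.45 log2 CPM in 5G2del, at 2.57, 0.32 and -0.67 in WT-A, WT-C and WT-D, and at 0 counts in WT-B, so its log2 fold change of 2.93 ± 1.62 depends on the offset added to counts. Without WT-B it was 1.15.

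The 2 genes of the anaphase-promoting complex overlapped between groups. Ube2c, the ubiquitin-conjugating enzyme that starts chains for it, was at 4.98, 3.85 and 4.29 log2 CPM in 5G2del and 4.71, 3.83, 3.65 and 4.08 in WT. Cdc20, its activator, was at 3.97, 2.90 and 3.65 against 4.28, 1.68, 3.14 and 4.19. Cdc20 thus spanned 2.61 on the log2 scale within WT, far more than the difference of its group means, 0.18 ± 0.56.

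The mitotic kinases varied widely. Aurka, which matures the centrosomes, was at 3.72, 3.02 and 2.80 log2 CPM in 5G2del and 3.46, 2.87, 2.15 and 1.97 in WT, with a log2 fold change of 0.57 ± 0.41 that was 0.30 without 5G2del-A. Plk1, which drives mitotic entry and spindle assembly, was at 3.34, 2.12 and 1.77 in 5G2del, with WT-A at 3.68, WT-B at 0.035, WT-C at 2.31 and WT-D at 1.60. Nek2, a centrosome kinase, leaned the other way, at 2.32, 2.12 and 3.07 in 5G2del and 4.07, 2.62, 2.51 and 2.76 in WT (-0.49 ± 0.42), and WT-A alone was above the 5G2del libraries: without it the log2 fold change was -0.13.

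The chromosomal passenger complex corrects faulty attachments and later guides cytokinesis. Its kinase Aurkb was at 4.39, 3.48 and 4.23 log2 CPM in 5G2del and 4.59, 3.67, 3.41 and 3.75 in WT. Birc5, which encodes Survivin, was at 3.87, 3.47 and 4.05 against 4.34, 3.14, 3.20 and 3.91. Cdca8 was at 5.30, 3.97 and 4.86 against 5.57, 2.88, 4.17 and 3.91. In each of the 3 genes WT-A was highest, and the log2 fold changes were 0.18 ± 0.32, 0.15 ± 0.32 and 0.58 ± 0.52. Of the spindle checkpoint kinases, Bub1b, which encodes BubR1, was at 4.68, 3.98 and 4.33 in 5G2del and 4.97, 3.22, 4.09 and 3.67 in WT, and Ttk, which encodes MPS1, at 2.98, 2.42 and 2.96 against 3.20, 1.23, 2.36 and 3.05. Bub1 had a log2 fold change of 0.03 ± 0.39.

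Kinetochore and centromere genes were the role group with a median below 0. Of its 6 members 5 had a lower mean in 5G2del, with log2 fold changes from -0.17 to -0.10, and none passed the threshold. Cenpa was at 5.12, 3.96 and 5.30 log2 CPM in 5G2del and 5.20, 5.30, 4.78 and 4.58 in WT, so that WT-B, lowest in most members, was among the highest here. Cenpf, a kinetochore protein that appears in late G2, was at 5.39, 4.25 and 5.16 against 6.06, 4.65, 4.61 and 4.82. Hjurp was nearly level, at 6.42, 6.55 and 6.48 in 5G2del and 6.65, 6.50, 5.83 and 6.37 in WT (0.15 ± 0.20). Ndc80 and Nuf2, which form the arm that grips microtubules, had log2 fold changes of -0.13 ± 0.34 and -0.15 ± 0.32, and Cenpe, a kinetochore motor, of -0.12 ± 0.51.

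All 10 spindle genes had higher means in 5G2del (median log2 fold change 0.34), none past the threshold. Their mean ran from 2.44 log2 CPM in WT-B to 4.75 in WT-A, and the 5G2del libraries lay between, at 3.66 to 4.19. Tacc3, which steadies spindle microtubules, was at 3.89, 3.76 and 4.12 in 5G2del and 4.32, 3.05, 3.15 and 3.59 in WT, so that WT-A alone among the WT libraries reached the 5G2del levels (0.40 ± 0.32; 0.66 without WT-A). Nusap1, which bundles microtubules near chromosomes, was at 5.27, 4.31 and 5.55 against 5.60, 3.99, 4.30 and 4.43. Kif2c, the microtubule-depolymerising kinesin, and Gtse1 had the widest intervals, with log2 fold changes of 0.97 ± 0.92 and 0.48 ± 0.87, and both were lowest in WT-B, with 12 and 13 counts. The others ran from 0.13 for Tpx2 to 0.69 for Ckap2l.

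Cytokinesis genes split 2 and 2. Anln, a scaffold of the contractile ring, was at 4.74, 3.87 and 4.38 log2 CPM in 5G2del and 5.17, 2.24, 3.86 and 3.46 in WT (0.65 ± 0.54; 0.17 without WT-B and 1.15 without WT-A). Kif20b was at 5.28, 4.47 and 5.18 against 5.47, 3.63, 4.77 and 5.07. Ect2, the exchange factor that activates RhoA at the midzone, and Kif23, the motor of the central spindle, had log2 fold changes of -0.03 ± 0.34 and -0.01 ± 0.33.

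The mean of the chromosome and chromatin genes spanned 1.11 on the log2 scale over the libraries, less than that of the other role groups, and all 8 had a higher mean in 5G2del by small amounts (median 0.15). Mki67, the proliferation antigen that coats mitotic chromosomes, was at 8.37, 7.09 and 7.80 in 5G2del and 9.09, 7.01, 7.17 and 7.72 in WT, a difference of 0.01 ± 0.45 that changed sign under quantile normalization, median centring and library sizes without mitochondrial genes. Top2a, which untangles sister chromatids, was at 7.57, 7.06 and 7.62 against 8.23, 6.94, 6.81 and 7.05 (0.16 ± 0.31). WT-A set both genes' maxima. Cdca2, the phosphatase subunit that acts on chromatin at mitotic exit, was at 4.13, 3.66 and 4.10 against 4.48, 3.66, 3.13 and 3.15. Tmpo, a nuclear envelope protein, was at 7.37, 7.47 and 7.26 against 7.56, 7.06, 7.08 and 7.12, where WT-A alone among the WT libraries reached 5G2del levels. Anp32e spanned 0.42 in all over the 7 libraries, the narrowest range of the 47 genes. Cdca3, a trigger of mitotic entry outside these groups, was at 4.31, 3.05 and 3.56 against 4.24, 2.73, 2.32 and 3.86.

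**Figure D4:**
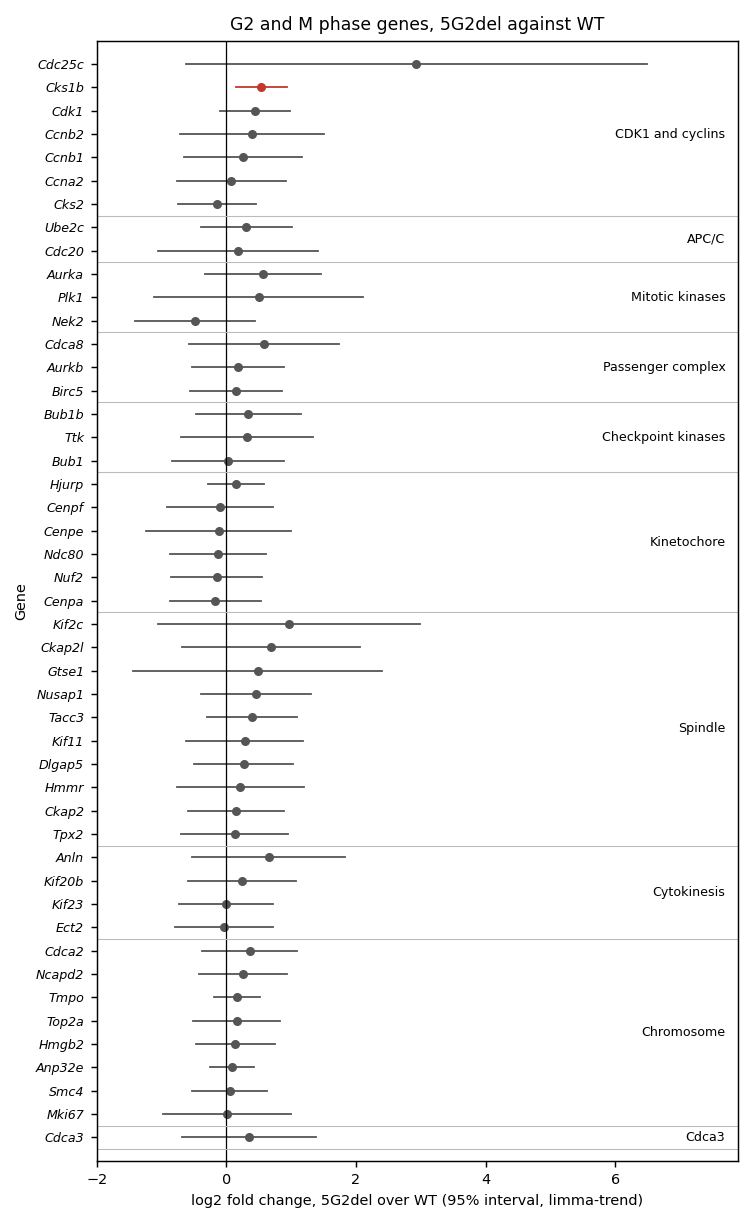
Log2 fold change, 5G2del over WT, of each of the 47 genes (points) with its 95% interval from limma-trend (lines), grouped by role (rows). The interval of Cks1b (red, 0.15 to 0.93) lies above 0 and the intervals of the other genes span 0, with the widest for Cdc25c.

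The mean of the rest of the pathway put the libraries in the same order, from WT-A down to WT-B, over a span of 0.67. That span was 1.73 for the 47 genes and 1.44 for the 44 with a mean log2 CPM of at least 2. Of 122 further G2 and M phase genes, a list put together for this comparison from regulators, anaphase-promoting complex, centromere, spindle and condensin genes, 0 passed the adjusted threshold, 6 were higher and 1 lower at an unadjusted p under 0.05 (1.68% and 2.24% of all genes), and 84 had higher means (53.3% of all genes). Their median log2 fold change was 0.17. Parts of the list departed from the order of its mean: the 17 anaphase-promoting complex and anaphase genes spanned 0.27, with WT-C lowest. In that part, in the regulators and in the checkpoint and centromere genes, 5G2del-A was highest. The transcription factors were higher on average without passing: Foxm1 was at 4.09, 3.35 and 4.09 log2 CPM in 5G2del and 4.40, 2.76, 2.93 and 3.07 in WT (0.56 ± 0.39; 0.93 without WT-A), and Mybl2, which encodes B-MYB, at 4.73, 3.39 and 3.30 against 3.61, 3.28, 2.42 and 3.07 (0.71 ± 0.40; 0.25 without 5G2del-A). Both overlapped between groups.

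Checkpoint and centromere genes outside the 47 held the lowest p-values of the list. Of 34 such genes 21 had higher means and 13 lower. At an unadjusted p under 0.05 in limma 4 were higher and 1 lower, against 1.68% and 2.24% of all genes. Groups did not overlap for 3 above and 2 below, against 2.92% and 2.78% of all genes. The 2 below were Ska2 and Cenph (-0.41 ± 0.28). Cenpm, of the constitutive centromere network, was at 3.54, 3.57 and 3.50 log2 CPM in 5G2del and 2.75, 2.55, 2.18 and 2.58 in WT, without overlap (1.02 ± 0.27; limma unadjusted p = 0.00286, adjusted p = 0.989). Cenpt, which links that network to the Ndc80 complex, was at 3.52, 3.80 and 4.56 against 3.11, 3.29, 3.39 and 3.34 (0.68 ± 0.28; 0.38 without 5G2del-C). Ska3, of the complex that steadies kinetochore-microtubule contacts, had a log2 fold change of 1.16 ± 0.45 and Nsl1, of the MIS12 complex, of 1.34 ± 0.59 (0.87 without WT-B), while Ska2, the partner of Ska3, had -0.85 ± 0.37 (-0.56 without WT-B) with every 5G2del library below every WT library. Members of 1 complex thus had opposite signs. Tuba1b, an alpha tubulin, had 0.47 ± 0.20, H2afz, the histone H2A.Z gene, 0.36 ± 0.16, and Jpt1 0.32 ± 0.16. Groups did not overlap for 9 of the 122 genes, 7 above and 2 below, against 5.7% of all genes.

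S phase genes did not share the order of the libraries. The 44 genes listed for S phase had their highest mean in 5G2del-B (5.41 log2 CPM), which was the third lowest library in the G2 and M phase genes, and their lowest in WT-C (4.59). The mean of the 47 genes minus that of the S phase genes was -0.45, -1.36 and -0.56 in 5G2del and -0.17, -1.50, -0.59 and -0.88 in WT. The groups came to -0.79 ± 0.50 (SD, n = 3) and -0.79 ± 0.56 (SD, n = 4), so this contrast varied from library to library and hardly differed between group means. Of the S phase genes 42 of 44 had higher means in 5G2del, against 53.3% of all genes (median log2 fold change 0.23). Their list mean overlapped between groups, at 5.19, 5.41 and 5.11 in 5G2del and 5.28, 4.89, 4.59 and 5.06 in WT. How this count changed with 1 library left out was not examined. At an unadjusted p under 0.05 in limma there were 3, all higher, against 1.68% of all genes. Among them were Prim1 (0.41 ± 0.17) and Uhrf1 (0.67 ± 0.28, and 0.42 without WT-C). Prim1 had groups without overlap, at 5.20, 5.40 and 5.38 log2 CPM in 5G2del and 4.82, 4.84, 4.87 and 5.13 in WT.

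**Figure D5:**
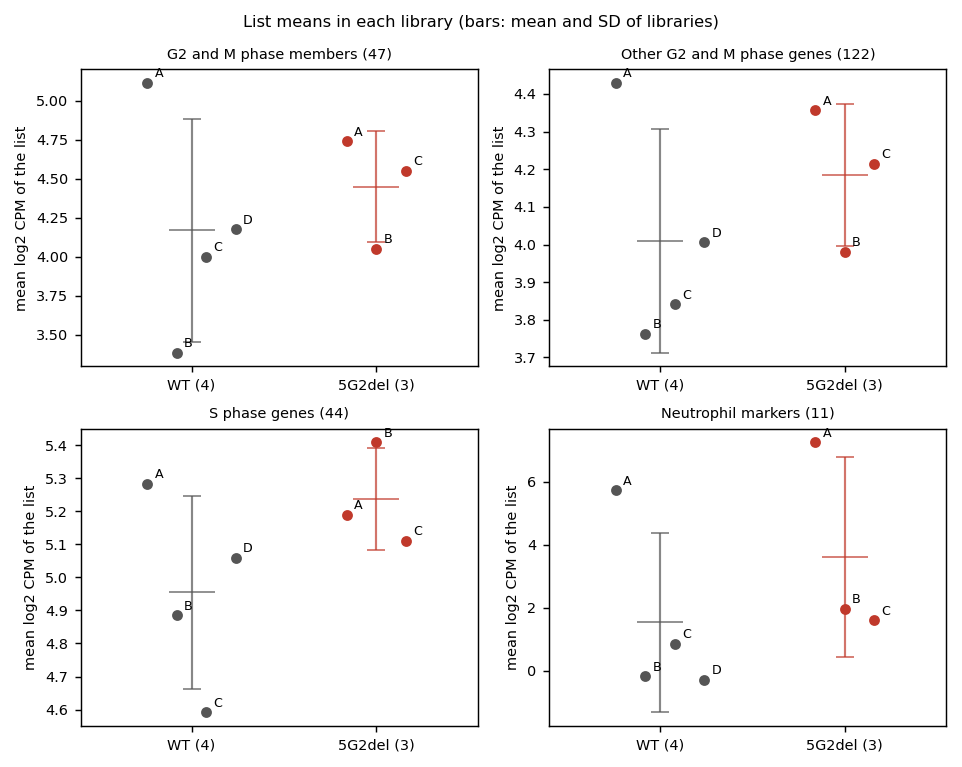
Mean log2 CPM of 4 gene lists in each library (points, lettered; y axis of each panel scaled to its own list), with the mean and SD of each group as bars. WT-A and 5G2del-A lie highest in both G2 and M phase lists and in the neutrophil markers, and 5G2del-B highest in the S phase genes.

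Transcripts of other blood cells also differed between libraries, in an order that was not the same for each list of markers. Neutrophil markers, of which 11 of 14 were in the table, averaged 5.74 log2 CPM in WT-A and 7.25 in 5G2del-A, the 2 libraries with the highest G2 and M phase means, against 1.97 and 1.60 in the other 5G2del and -0.29 to 0.86 in the other WT libraries. The most abundant of them was Mpo, at 11.25, 5.54 and 6.61 in 5G2del and 9.74, 4.91, 5.78 and 5.18 in WT, followed on average by Prtn3 (5.58 to 8.60); both are granule enzyme genes that dividing myeloid progenitors also express. Lcn2 and Ltf had 0 counts in WT-B and Chil3 in WT-D. Without 5G2del-A and WT-A, a choice made after the data were seen, the difference of the G2 and M phase means was 0.45, with 40 of 47 genes higher, against 52.9% of all genes. In that fit 2 of the 47, Cks1b and Cdc25c, had an unadjusted p under 0.05, a share near the 3.78% of all genes. Erythroid markers, 16 of 17 in the table, ran from 1.26 to 3.70 in WT and 0.094 to 3.11 in 5G2del and were high in WT-B (3.34), the library with the lowest G2 and M phase mean, as well as in WT-A; Car2 (8.37 to 8.84) and Hbb-bt (4.43 to 7.43) were the most abundant, and Slc4a1 and Hba-a2 were among those with 0 counts in at least 1 library. B and plasma cell markers (7 of 10) ran from -1.18 to 1.23 in WT and -0.75 to 3.51 in 5G2del, with Ighm and Cd79b highest. Igkc, Mzb1 and Igll1 were among those at 0 counts in at least 1 library. All 7 had a higher mean in 5G2del, against 53.3% of all genes. Jchain alone had every 5G2del library above every WT library (log2 fold change 4.53 ± 1.29, limma unadjusted p = 0.00473, adjusted p = 0.989). T and NK markers (5 of 9) ran from -1.47 to 1.05 in WT and -0.77 to 0.33 in 5G2del, with Nkg7 and Lck highest. Il2rb, Trbc2 and Klrd1 were at 0 counts in at least 1 library. Every 5G2del library was above every WT library for 2 of the 5 and below for 2, against 2.92% and 2.78% of all genes. Megakaryocyte markers (8 of 9) had list means from 1.57 to 2.00 in WT and 2.46 to 2.94 in 5G2del, without overlap. Of the 8 genes 6 had higher means and 2 lower. Treml1 alone had every 5G2del library above every WT library, as 2.92% of all genes had. Its very low WT values drew the WT list means down, and every other gene of the list overlapped between groups. Treml1 was near the floor in WT, with 0 counts in WT-B and WT-D, and was higher in every 5G2del library (log2 fold change 5.71 ± 1.38, limma unadjusted p = 0.0016, adjusted p = 0.989). The part of these cells in the values of the G2 and M phase genes was not tested.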

How the data were processed

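RNA of the 7 samples was made into libraries with a Tecan Ovation kit and read as paired ends of 100 cycles, per the labels' protocols. The submitters' processing notes name STAR 2.7.9a, RSEM 1.3.0 and limma 3.50.3, and the builds mm10 and GRCh38 without a role. Neither the annotation nor the scaling is given in the sources used here. The deposited table holds log2 CPM per library and, from the authors, a log2 fold change, p-value, q-value and t score for each gene; genes it does not list were not analysed here. A count of 0 stands at an offset of 0.5, which gave library sizes and expected counts of 2 decimals, about 71% of them whole within 0.01, so no count model was used. Voom on them gave back the authors' deposited t scores to within 2.39e-08. Expected counts of listed genes summed to 37930174 to 52194274 per library, and 3 counts came to 0.0538 to 0.0860 CPM, which covers counting error alone.

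The comparison used limma 3.58.1 in R 4.3.3 (trend) on all genes and libraries, with no covariate and an adjusted p threshold of 0.05. It was also run on simulated data with independent errors, which lack the shifts of a library that many genes share. The counts of each pair of libraries differed beyond sampling noise (lowest chi-square over its degrees of freedom 63.8), so each library was counted once. Members and lists were chosen with earlier results of these data known, so no list has a p-value. Named with values in each library were members with an unadjusted p under 0.05, without overlap, or with the 2 largest absolute t of their role, and 16 set members, together 29; of the further genes the 8 with the largest absolute t, Foxm1 and Mybl2, and of S phase genes 3, of which 1 is not reported here. Other members were named as extremes of their role after their values were seen. Of 16760 genes, 16748 matched GENCODE M21. Alternatives were each library left out, 3 scalings, log2(CPM + 1), filters at a mean of 0 and 2, no trend, robust and voom fits.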

Additional observations from a re-analysis of the deposited data

Results flagged for a closer look

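In the 4 WT libraries, 47 members and 25 list means, which share genes, were examined for a library far from the other 3 (Dixon's 95% limit); chance flags about 1 in 20. WT-A was such a library, above the rest, for 4 members: Nek2 at 4.07 log2 CPM (others 2.51 to 2.76), Cenpf at 6.06 (4.61 to 4.82), Tpx2 at 5.59 (4.09 to 4.30) and Tmpo at 7.56 (7.06 to 7.12). WT-B lay below the rest for the mean of the stem and progenitor markers, at 5.50 (others 5.89 to 5.95), and of the T and NK markers, at -1.47 (0.92 to 1.05).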

How the results depend on the processing

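Members past adjusted p 0.05 numbered 0 in the limma fits of every alternative run (voom included), and those at an unadjusted p under 0.05 numbered 1 in most, 0 on library sizes without mitochondrial genes, 0 to 12 with 1 library left out, 7 without WT-A and WT-B and 2 without 5G2del-A and WT-A. Members higher in 5G2del numbered 23 to 45 with 1 library left out. Their median log2 fold change ran from -0.016 to 0.50, and the difference of member means from 0.017 to 0.59, with 1 library left out. Of 29 named members, 14 changed sign with 1 library left out, with log2 fold changes in these ranges: Cdc20 -0.37 to 0.50, Ttk -0.084 to 0.57, Aurkb -0.001024 to 0.45, Kif20b -0.13 to 0.50, Hjurp -0.024 to 0.25, Cenpa -0.42 to 0.25, Ccna2 -0.22 to 0.41, Ccnb1 -0.074 to 0.64, Ccnb2 -0.052 to 0.80, Plk1 -0.12 to 1.10, Birc5 -0.017 to 0.38, Mki67 -0.30 to 0.45, Cenpf -0.33 to 0.24 and Cks2 -0.33 to 0.069. Signs also turned for Ccna2 (-0.039) and Mki67 (-0.11) on library sizes without mitochondrial genes, for Mki67 under quantile normalization (-0.11) and median centring (-0.026), for Cdc20 (-0.16), Cenpa (0.12) and Cenpf (0.22) without WT-A and WT-B, and for Cenpf (0.014) without 5G2del-A and WT-A; the cause was not tested. No paired analysis was possible because the columns of the table carry no replicate number. Depth limits Cdc25c, Kif2c and Gtse1, which had 0, 12 and 13 counts in WT-B.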
